A study of Mus musculus with 12 samples.

Results

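Zmym3 encodes a MYM-type zinc finger protein of the nucleus that has been found with the histone demethylase LSD1, the corepressor CoREST and histone deacetylases, a complex that keeps genes off. The comparison described here asks what the loss of Zmym3 does to the transcripts of c-KIT+ cells, the differentiating germ cells that mouse spermatogonial stem cells (SSCs) give rise to in culture when retinoic acid (RA) is added. RA is the vitamin A derivative that moves spermatogonia out of self-renewal, and it switches on the receptor c-KIT and the factor STRA8 on the way to meiosis. The libraries were chosen by their labels, which gives 4 of the 12 libraries of the series: 2 of Zmym3 knockout (KO) c-KIT+ cells and 2 of wild-type (WT) c-KIT+ cells.

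Both groups were male cells of the strain label CBA/C57, labelled 2-month-old, which were grown as SSC lines on laminin, free of feeder cells, and given 100 nM RA for 36 h. The KO allele was made with Cas9 mRNA and a pair of guide RNAs injected into fertilized eggs, which left small frame-shifting deletions in exon 2 of the X-linked gene. Female founders were bred to wild-type males, KO males with either of 2 alleles were pooled under a single name, and several SSC lines were derived from KO mice and their wild-type littermates. Which allele or line each library represents is not given in the sources used here. No source states separate cultures for the 2 libraries of either genotype, and the p-values therefore measure library-to-library spread, which may be technical. The induced cells were not described as sorted. The series also holds 2 KO and 2 WT libraries of SSCs without RA, which were used for comparison, and 4 libraries of spermatocytes.

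The 2 guides and the stretch of exon 2 that they address are printed first, because the knockout rests on them. In GRCm38 sgRNA1 lies at chrX:101418554-101418573 and sgRNA2 at chrX:101418462-101418481, both on the minus strand, as is the gene, and both in coding sequence of exon 2 (chrX:101418273-101418952, 680 bases, of 25 exons in the transcript used). In the guide lines the 3 bases in capitals are the PAM that Cas9 needs beside its target. In the line of the genomic stretch, chrX:101418449-101418583, the capitals mark the 2 guide targets with their PAMs. The positions at which Cas9 would cut lie 92 bases apart.
sgRNA1: gaggtgatgccacctgatccAGG
sgRNA2: ggagtctcctcatattgaagAGG
Zmym3 exon 2 stretch: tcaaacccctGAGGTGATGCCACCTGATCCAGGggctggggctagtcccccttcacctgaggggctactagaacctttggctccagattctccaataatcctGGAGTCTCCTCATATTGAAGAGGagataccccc

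The targeted gene was low in both KO libraries. Zmym3 (in mm9 on chromosome X, start 98599723, end 98616024) had 10.01 and 11.3 FPKM in KO c-KIT+ cells, against 39.9 and 39.7 FPKM in WT c-KIT+ cells, where FPKM counts fragments normalised for transcript length and sequencing depth. The groups stood far apart, and KO was below WT by a log2 fold change of -1.81 (standard error 0.06, adjusted p = 4.04e-06, limma). About 10 FPKM of Zmym3 RNA therefore remained in the KO libraries, and these values do not tell which part of the transcript the fragments came from. Of the other 6 MYM-type zinc finger genes (Zmym1, Zmym2, Zmym4, Zmym5, Zmym6 and Qrich1) none was called, and their log2 fold changes lay between -0.19 for Zmym1 and 0.10 for Qrich1. Of the genes within 1 Mb of Zmym3, Otud6a was the only other gene called among 18 tested with Zmym3 included. Otud6a, a deubiquitinase gene, was at 3.40 and 3.01 FPKM in KO c-KIT+ cells, against 7.61 and 6.51 FPKM in WT c-KIT+ cells (log2 fold change -0.94, adjusted p = 0.000769, limma), and was named after its value was seen.

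The libraries carried the c-KIT+ label in both genotypes. Against SSCs of the same genotype, Kit was higher in c-KIT+ cells by 2.39 on the log2 scale in KO and 2.49 in WT, and Stra8 by 7.76 in KO and 7.78 in WT. The stem cell genes Gfra1, Zbtb16, Lin28a, Etv5, Nanos2, Ret and Id4 were lower in c-KIT+ cells than in SSCs in both genotypes, all called by limma. Of the 5 differentiation markers, Rec8 and Sohlh1 were also higher and Dmrtb1 was lower in both. Between the genotypes Kit was at 7.14 and 6.92 FPKM in KO c-KIT+ cells, against 7.63 and 8.70 FPKM in WT c-KIT+ cells (log2 fold change -0.19, adjusted p = 0.233, limma). Stra8, which germ cells need to enter meiosis, was at 556 and 603 FPKM in KO c-KIT+ cells, against 627 and 608 FPKM in WT c-KIT+ cells, and was not called either (-0.09, adjusted p = 0.669, limma). Cyp26a1, the RA-degrading enzyme that RA induces, was at 16.7 and 17.1 FPKM in KO c-KIT+ cells and 18.3 and 16.5 FPKM in WT c-KIT+ cells, and its groups overlapped. It was named after its values were seen.

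Fold changes were taken on log2(FPKM + 1), a scale that understates the changes of weakly expressed genes, and a gene was called when the adjusted p of limma was under 0.01. Among 11981 genes tested, 324 were called (2.70%), 133 higher (1.11%) and 191 lower (1.59%) in KO c-KIT+ cells, and 2734 had an unadjusted p under 0.05. Counts of called members in the gene lists below are to be read beside these shares, and a list with 1 or 2 calls rests on few genes. Among the genes of DNA methylation and polycomb, for 1, 2.27% were called, near the share of all genes. The counts rested on all 4 libraries, with 66 genes called higher and 81 lower without KO replicate 1, 35 and 88 without KO replicate 2, 28 and 59 without WT replicate 1, and 24 and 55 without WT replicate 2. Most called changes were small. Of the higher genes 14 changed by at least 1 on the log2 scale, 65 by 0.5 to 1 and 54 by less, with a median of 0.53, and of the lower genes 34, 105 and 52, with a median of -0.61. The called higher genes had median levels of 9.87 FPKM in KO and 6.15 FPKM in WT c-KIT+ cells, and the called lower genes 4.21 FPKM in KO and 8.02 FPKM in WT, where the median of all genes tested was 10.6 FPKM. In 16 of the higher genes WT was below 1 FPKM, and in 30 of the lower genes KO was below 1 FPKM. The median log2 fold change of all genes was 0.01, and both KO libraries lay on the same side of both WT libraries in 6266 genes (52.3%), so that an absence of overlap says little by itself. Pearson r across genes, which are not independent replicates, was 0.9954 within KO, 0.9960 within WT and between 0.9875 and 0.9890 across the genotypes.

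**Figure D1:**
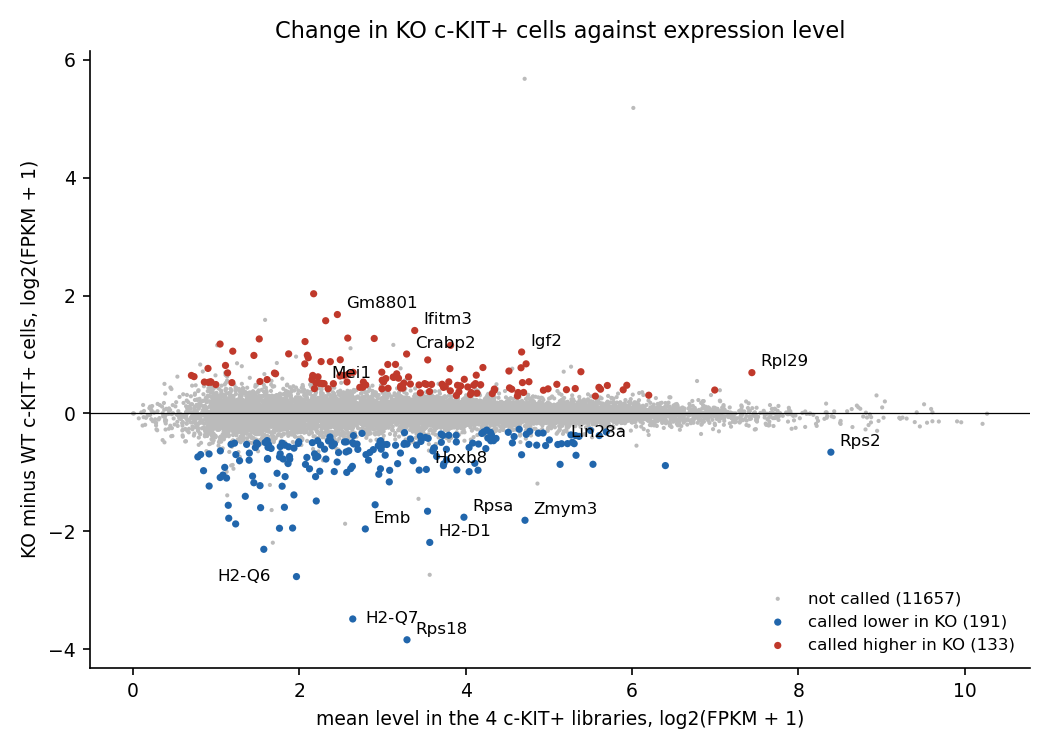
Each point is a gene, placed by its mean level in the 4 c-KIT+ libraries, log2(FPKM + 1), and by its KO minus WT difference on the same scale. The 133 called higher genes (red) and 191 called lower genes (blue) lie mostly within 1 log2 unit of 0, with Rps18 at the bottom. The 2 grey points above 5 are Snord15b and LOC624853, which were not called.

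Of the 12 largest increases, Serpinf1 (log2 fold change 1.28), which encodes the secreted antiangiogenic factor PEDF, Gstm2 (1.18), a glutathione transferase, Smagp (1.16), a small membrane protein of epithelia, and Fam5b (1.06), a secreted neural protein, are genes of known product. Fam5b was at 1.80 and 2.41 FPKM in KO c-KIT+ cells, against 0.515 and 0.457 FPKM in WT c-KIT+ cells. Without WT replicate 2 both Smagp and Fam5b were outside the threshold (adjusted p = 0.0122 and 0.0112), as was Smagp without KO replicate 2 (adjusted p = 0.0152). Triml2 (1.22), 4930481A15Rik (1.57), 2610005L07Rik (1.27) and Gm8801 (1.68) also rose, Triml2 with a call that was lost without KO replicate 1, KO replicate 2 or WT replicate 1 (adjusted p = 0.0109, 0.0249 and 0.0229). Ifitm3, an interferon-induced membrane protein that marks early germ cells, was at 11.9 and 16.6 FPKM in KO c-KIT+ cells, against 4.97 and 4.39 FPKM in WT c-KIT+ cells (1.41, adjusted p = 0.00571, limma). The KO libraries of Ifitm3 differed among themselves, and the call was lost whichever c-KIT+ library was left out, with adjusted p between 0.0109 without KO replicate 1 and 0.0493 without WT replicate 2.

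Several of the 12 largest decreases were those of genes with a known product. Emb, which encodes embigin, a surface protein of the immunoglobulin family that accompanies lactate transporters, was at 1.57 and 2.13 FPKM in KO c-KIT+ cells, against 10.1 and 9.93 FPKM in WT c-KIT+ cells (-1.96 on the log2 scale, SE 0.13, adjusted p = 0.000107, limma). Trf, the iron carrier transferrin that Sertoli cells secrete in the testis, was at 4.31 and 4.90 FPKM in KO c-KIT+ cells, against 16.5 and 16.8 FPKM in WT c-KIT+ cells (-1.66, SE 0.06, adjusted p = 4.45e-06, limma). Both genes kept their call whichever of the 4 libraries was left out, a fit in which the lone library of the genotype is assumed to vary like those of the other groups. Ccbl2, an aminotransferase gene, was at 0.486 and 0.636 FPKM in KO c-KIT+ cells, against 5.00 and 5.00 FPKM in WT c-KIT+ cells (-1.94, adjusted p = 1.76e-05, limma). Raet1d, a ligand of the natural killer cell receptor NKG2D, and Gm9855 were listed at or near 0 in both KO libraries, against 4.22 and 3.67 FPKM for Raet1d and 2.65 and 2.23 FPKM for Gm9855 in WT c-KIT+ cells. Tmsb15b1, a thymosin gene, was at 0.837 and about 0 FPKM in KO c-KIT+ cells and at 5.52 and 3.19 FPKM in WT c-KIT+ cells. Its call was lost without KO replicate 2, WT replicate 1 or WT replicate 2 (adjusted p = 0.0414, 0.07 and 0.0232, limma).

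**Figure D2:**
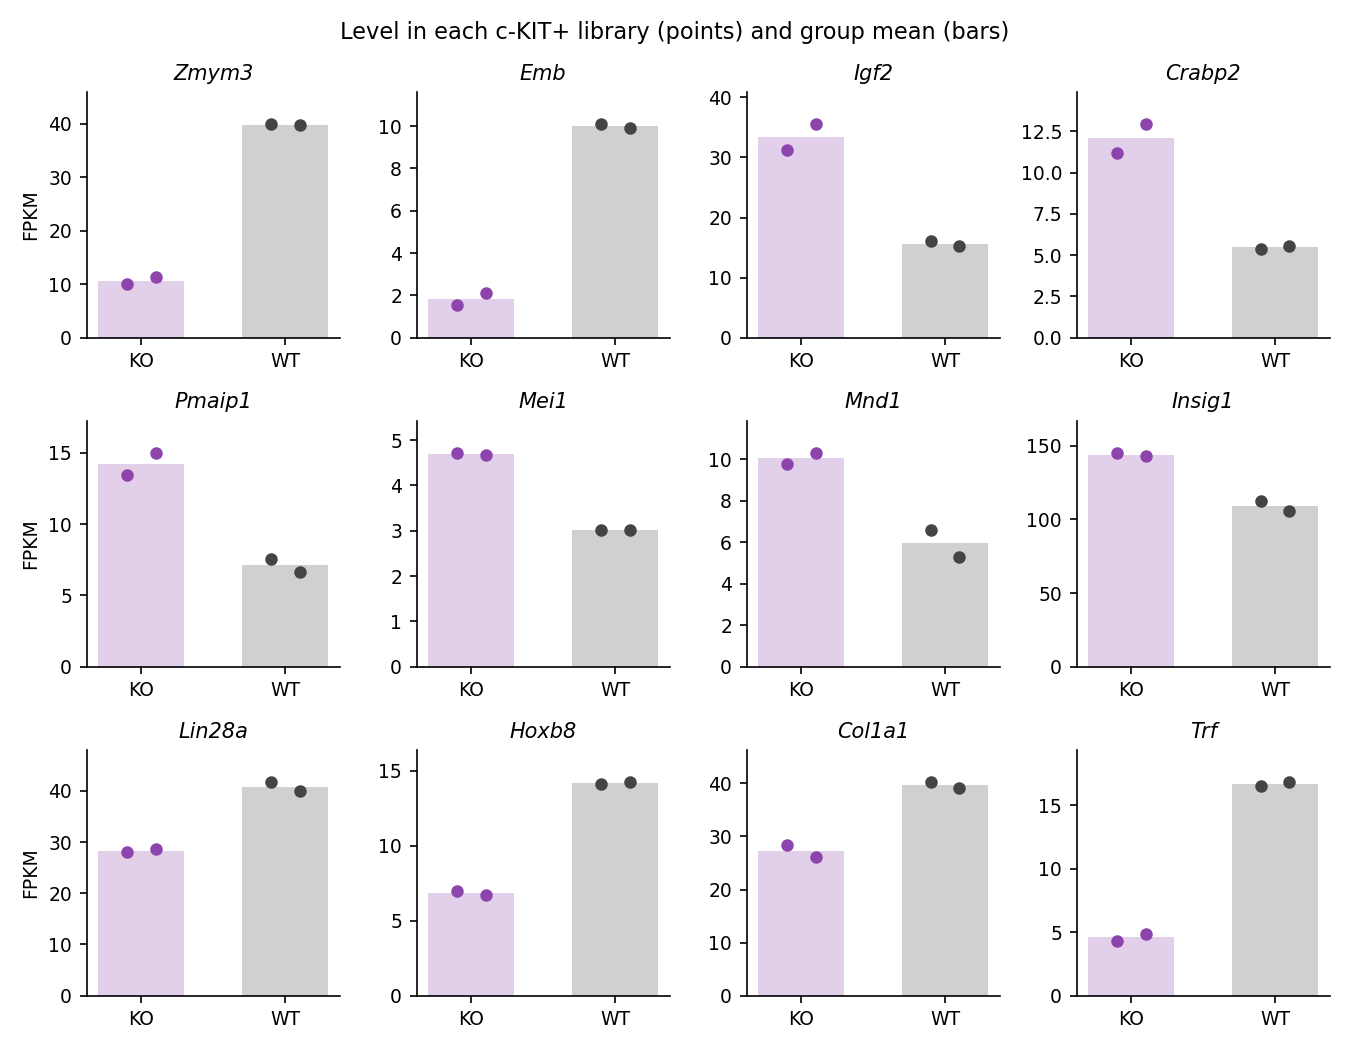
Level in FPKM of 12 genes in each c-KIT+ library, with KO left of WT in each panel, the points being libraries and the bars group means (n = 2 each). The 12 genes were picked from those called. Points of the 2 genotypes overlap in none of the panels, which follows from that choice and held for 52.3% of all genes tested. The bars start at 0.

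Lin28a, whose product binds RNA in the stem cell compartment and blocks maturation of the let-7 microRNAs, was lower in KO c-KIT+ cells. Lin28a was at 28.0 and 28.6 FPKM in KO c-KIT+ cells, against 41.7 and 39.9 FPKM in WT c-KIT+ cells, with no overlap (a difference of -0.51 on the log2 scale, SE 0.05, adjusted p = 0.000692, limma). Without WT replicate 1 its adjusted p was 0.011, just outside the threshold, and it was called without each of the other libraries. Undifferentiated spermatogonia were represented by 30 tested genes, of which 3 fell, 27 were not called and none rose (median log2 fold change -0.08, where all genes were at 0.01). Besides Lin28a these were the forkhead factor Foxc2, at 1.60 and 1.91 FPKM in KO c-KIT+ cells against 2.995 and 3.13 FPKM in WT c-KIT+ cells (-0.56, adjusted p = 0.00742, limma), and Upp1, a uridine phosphorylase (-0.50, adjusted p = 0.0061, limma). Neither Foxc2 nor Upp1 kept its call when any of the libraries was left out, and Foxc2 in c-KIT+ cells was far below its SSC level of 21.6 to 37.8 FPKM. The GDNF receptor gene Gfra1 (-0.18, adjusted p = 0.0513), the pluripotency factor Pou5f1 (-0.15, adjusted p = 0.406), Sall4 (-0.04, adjusted p = 0.791) and the adhesion gene Cdh1 (-0.32, adjusted p = 0.0509) were not called by limma. For Cdh1 the libraries were at 1.09 and 1.07 FPKM in KO c-KIT+ cells and 1.59 and 1.62 FPKM in WT c-KIT+ cells.

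Of 18 tested genes of differentiating spermatogonia none was called, with a median of -0.05. The most abundant were Stra8, given above, and Uchl1, a deubiquitinase of spermatogonia, at 333 and 406 FPKM in KO c-KIT+ cells and 460 and 405 FPKM in WT c-KIT+ cells, where the groups overlapped. Germ cell markers as a whole were level: none of 9 tested was called, and their summed levels were 839 and 880 FPKM in KO c-KIT+ cells and 829 and 842 FPKM in WT c-KIT+ cells. Dazl, an RNA-binding protein of germ cells, was at 192 and 200 FPKM in KO c-KIT+ cells and 191 and 203 FPKM in WT c-KIT+ cells.

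Mei1, which is needed for the programmed DNA breaks that start meiotic recombination, was higher in KO c-KIT+ cells. Mei1 was at 4.71 and 4.66 FPKM in KO c-KIT+ cells, against 3.01 and 3.02 FPKM in WT c-KIT+ cells, and the libraries of each genotype lay close together (0.50 on the log2 scale, SE 0.07, adjusted p = 0.00379, limma). With 1 library left out the difference stayed between 0.50 and 0.51, while the adjusted p rose to 0.0236 without KO replicate 1, 0.0242 without KO replicate 2, 0.0356 without WT replicate 1 and 0.0348 without WT replicate 2. Of 27 tested genes of meiotic recombination, 2 rose and none fell, Mei1 and Mnd1 (7.41% called, against 2.70% of all genes tested). Of the 27 genes 18 lay above 0 (median 0.06). Mnd1, a partner of the recombinase DMC1 in strand exchange, was at 9.79 and 10.3 FPKM in KO c-KIT+ cells, against 6.61 and 5.31 FPKM in WT c-KIT+ cells (0.67, SE 0.09, adjusted p = 0.00363, limma). Mnd1 was called without WT replicate 1 and not without KO replicate 1, KO replicate 2 or WT replicate 2 (adjusted p = 0.0174, 0.0278 and 0.0186).

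Of 13 tested genes for the synaptonemal complex or for meiotic cohesin none was called, with a median log2 fold change of 0.00. Sycp3, an axial element protein, was at 113 and 112 FPKM in KO c-KIT+ cells, against 103 and 91.4 FPKM in WT c-KIT+ cells (0.21, 95% interval 0.04 to 0.38, adjusted p = 0.136, limma). Sycp1 was at 62.4 and 53.5 FPKM in KO c-KIT+ cells and 52.9 and 60.1 FPKM in WT c-KIT+ cells (0.03, 95% interval -0.16 to 0.23), and its groups overlapped. The meiotic cohesin genes Stag3 (0.18, adjusted p = 0.0578) and Smc1b (0.26, adjusted p = 0.104) were above 0 and Rec8 (-0.35, adjusted p = 0.131) below it, none of them called by limma. Rec8 was named after its value was seen.

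Of 20 tested genes of the piRNA pathway, which silences transposons in germ cells, 1 rose (5.0% called, against 2.70% of all genes tested). This was Tdrd9, a helicase gene, at 25.7 and 26.6 FPKM in KO c-KIT+ cells, against 20.98 and 21.2 FPKM in WT c-KIT+ cells (log2 fold change 0.30, adjusted p = 0.00744, limma). Tdrd9 was not called when any of the libraries was left out (adjusted p between 0.024 without KO replicate 1 and 0.0684 without WT replicate 1). Mael was at 124 and 124 FPKM in KO c-KIT+ cells, against 106 and 108 FPKM in WT c-KIT+ cells, short of the threshold (0.21, adjusted p = 0.028, limma). Of 29 tested genes of the spindle assembly checkpoint and the chromosomal passenger complex none was called (median 0.04). Their log2 fold changes ran from -0.31 for Mad2l2 to 0.69 for Aurkc (adjusted p = 0.016, limma), both named after their values were seen. Of 30 tested genes of S phase none was called (median 0.07). The most abundant members of both lists were Cdc20 (-0.19, adjusted p = 0.0507), the target that the checkpoint holds in check, Incenp (0.14, adjusted p = 0.148), and the replication helicase genes Mcm2 (-0.09, adjusted p = 0.275) and Mcm3 (0.02, adjusted p = 0.852).

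Of 15 tested genes of the LSD1-CoREST-HDAC complex, 1 was called (6.67%, against 2.70% of all genes tested), the histone deacetylase Hdac1. Hdac1 was at 15.4 and 15.5 FPKM in KO c-KIT+ cells, against 10.5 and 10.2 FPKM in WT c-KIT+ cells (0.54 on the log2 scale, SE 0.07, adjusted p = 0.00363, limma). The call of Hdac1 was lost whichever library was left out, with adjusted p between 0.0213 without KO replicate 1 and 0.0371 without WT replicate 2. Kdm1a, which encodes LSD1 itself, was at 47.4 and 49.7 FPKM in KO c-KIT+ cells and 52.4 and 50.4 FPKM in WT c-KIT+ cells (-0.08, 95% interval -0.19 to 0.02). Hdac2, the more abundant deacetylase, differed by -0.06 and Rcor1, which encodes CoREST, by -0.01, and neither was called. Kdm1a, Hdac2 and Rcor1 were named after their values were seen. Of 44 tested genes of DNA methylation and polycomb 1 fell, Cbx8, a reader of the polycomb mark, at 22.5 and 22.03 FPKM in KO c-KIT+ cells against 28.8 and 28.7 FPKM in WT c-KIT+ cells (-0.35, adjusted p = 0.00237, limma), a call that was lost whichever library was left out (adjusted p up to 0.0295).

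Of 19 tested genes of the RA pathway, 1 rose and 1 fell (10.5% called, against 2.70% of all genes tested). Crabp2, which carries RA from the cytoplasm to its nuclear receptors, was at 11.2 and 12.9 FPKM in KO c-KIT+ cells, against 5.39 and 5.58 FPKM in WT c-KIT+ cells (1.01 on the log2 scale, SE 0.08, adjusted p = 0.000275, limma). It was called whichever library was left out. Rxrg, a retinoid X receptor, was at 0.824 and 0.887 FPKM in KO c-KIT+ cells, against 1.56 and 1.78 FPKM in WT c-KIT+ cells (-0.52, adjusted p = 0.00977, limma), and lost its call without any of the libraries. Crabp2 was as high in SSCs, at 11.9 and 13.2 FPKM in KO SSCs against 5.29 and 5.08 FPKM in WT SSCs, so the difference was there without added RA.

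Igf2 and H19, imprinted neighbours that are expressed from opposite parental copies, were both higher in KO c-KIT+ cells. Igf2, a fetal growth factor, was at 31.2 and 35.6 FPKM in KO c-KIT+ cells, against 16.01 and 15.3 FPKM in WT c-KIT+ cells (1.04 on the log2 scale, SE 0.07, adjusted p = 0.000119, limma). H19, a noncoding RNA, was at 67.2 and 73.5 FPKM in KO c-KIT+ cells, against 51.8 and 48.6 FPKM in WT c-KIT+ cells (0.48, adjusted p = 0.00158, limma), and lay outside the threshold without WT replicate 1 (adjusted p = 0.0103) or WT replicate 2 (adjusted p = 0.0215). Igf2as, which overlaps Igf2 on the opposite strand, was also higher (0.53, adjusted p = 0.00708, limma). These unstranded values cannot tell its reads from those of Igf2, since no source used here states a stranded count, and it was named after its value was seen. Of 24 tested imprinted genes Igf2 and H19 rose, Dlk1, a Notch-like membrane protein, fell (-0.59, adjusted p = 0.00379, limma) and 21 were not called. The call of Dlk1 was lost without any of the libraries.

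Of 30 tested apoptosis genes, 2 rose and none fell (6.67% called, against 2.70% of all genes tested). Pmaip1, which encodes the p53-induced BH3 protein NOXA, was at 13.4 and 15.0 FPKM in KO c-KIT+ cells, against 7.58 and 6.64 FPKM in WT c-KIT+ cells (0.91 on the log2 scale, SE 0.07, adjusted p = 0.000275, limma) and was called whichever library was left out. Casp9, the initiator caspase downstream of mitochondria, was at 14.02 and 14.7 FPKM in KO c-KIT+ cells, against 10.4 and 9.42 FPKM in WT c-KIT+ cells (0.50, adjusted p = 0.0042, limma) and lost its call whichever library was left out (adjusted p between 0.0166 without WT replicate 1 and 0.0398 without WT replicate 2). Of 26 tested immediate-early genes 1 rose, Egr1, at 56.5 and 62.8 FPKM in KO c-KIT+ cells, against 43.9 and 41.3 FPKM in WT c-KIT+ cells (0.47, adjusted p = 0.00539, limma). Egr1 was called without KO replicate 1 only (adjusted p = 0.0315 without KO replicate 2, 0.03 without WT replicate 1 and 0.0519 without WT replicate 2).

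The genes of cholesterol synthesis and uptake were all above 0. Of 24 tested, 4 rose, none fell, and all 24 had a log2 fold change above 0 (median 0.15, where all genes had 0.01). In 18 of the 24 both KO libraries lay above both WT libraries, which held for 26.8% of all genes. Insig1, which holds the sterol sensor in the endoplasmic reticulum, and Cyp51 and Nsdhl, enzymes that remove methyl groups from lanosterol, were among the called members. Insig1 was at 145 and 143 FPKM in KO c-KIT+ cells, against 112 and 106 FPKM in WT c-KIT+ cells (0.40, SE 0.05, adjusted p = 0.00184, limma). Cyp51 was at 33.8 and 36.9 FPKM in KO c-KIT+ cells, against 27.2 and 25.3 FPKM in WT c-KIT+ cells (0.42, adjusted p = 0.00376, limma). Nsdhl differed by 0.34 (adjusted p = 0.00486, limma). Of the uncalled members, Sqle, an enzyme of the pathway named after its value was seen, differed by 0.15. Leaving out KO replicate 1 or 2 kept 1 call, leaving out WT replicate 1 or 2 kept 0, and 0 were called in a fit of the c-KIT+ libraries alone, while 21 of 24 stayed above 0 without KO replicate 2, 22 without WT replicate 1 and 24 without either of the others. In SSCs the median of the list was 0.23 and 5 were called higher in KO.

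Promoter sequence was available for 15 of these 24 genes (RefSeq, GRCm38.p6, the 250 bases before the start), and a search on both strands for CCAAT, the box that the factor NF-Y binds, found it in all 15 (100.0%), against 41.5% of the 8576 promoters matched among all genes tested. The E-box CACGTG was in 26.7% of the 15 and 10.7% of all, and TCACNCCAC, a sterol response element, in 0 of the 15 and 1.2% of all. Among the called higher genes CCAAT was in 45.2% of promoters and among the called lower genes in 42.0%. The motifs were chosen with the values known, and a match is a description of these letters only. The promoters of 3 of the called members are shown 5′ to 3′ on the strand of the gene, with CCAAT (or ATTGG, its reverse complement) and CACGTG in capitals: Insig1 at chr5:28071162-28071411 on the plus strand, Cyp51 at chr5:4104698-4104947 on the minus strand and Nsdhl at chrX:72918271-72918520 on the plus strand.
Insig1: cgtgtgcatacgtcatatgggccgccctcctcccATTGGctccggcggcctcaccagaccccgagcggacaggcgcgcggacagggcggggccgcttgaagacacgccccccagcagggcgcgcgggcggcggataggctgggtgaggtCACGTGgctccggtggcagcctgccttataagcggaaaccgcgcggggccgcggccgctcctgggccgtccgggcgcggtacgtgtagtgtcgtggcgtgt
Cyp51: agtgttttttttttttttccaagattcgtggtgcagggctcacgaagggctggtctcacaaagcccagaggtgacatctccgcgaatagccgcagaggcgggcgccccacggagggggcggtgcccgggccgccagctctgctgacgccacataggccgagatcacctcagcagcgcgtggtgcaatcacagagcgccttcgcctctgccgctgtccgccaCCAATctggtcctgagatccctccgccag
Nsdhl: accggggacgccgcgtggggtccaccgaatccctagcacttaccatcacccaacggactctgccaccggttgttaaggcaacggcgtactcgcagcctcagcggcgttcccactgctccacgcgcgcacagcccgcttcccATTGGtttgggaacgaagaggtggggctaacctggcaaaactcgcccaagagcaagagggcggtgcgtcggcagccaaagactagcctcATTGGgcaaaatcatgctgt

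**Figure D3:**
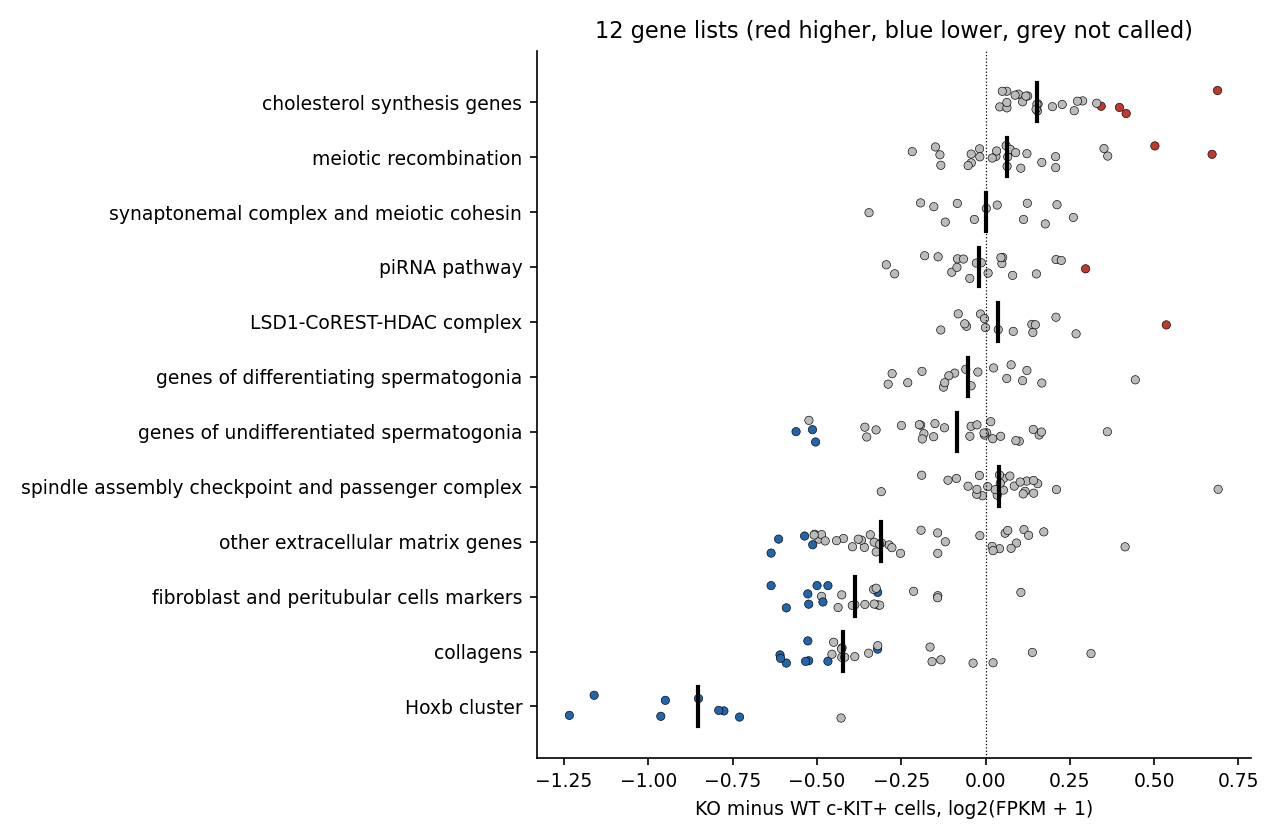
KO minus WT log2 fold change in c-KIT+ cells of the tested members of 12 gene lists, 1 point per gene, red called higher, blue called lower and grey not called, with a black bar at the list's median. All 24 cholesterol genes lie right of 0, the 9 Hoxb genes all left of it, and the lists of meiosis and of spermatogonia lie on both sides of 0.

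The Hoxb cluster, transcription factors that pattern the body axis, was lower in KO c-KIT+ cells at most of its genes. Of 9 tested genes 8 fell, and Hoxb3 was below 0 but not called (-0.43, adjusted p = 0.0543, limma), with a median log2 fold change of -0.85. The Hoxb and collagen genes were singled out by the study on these libraries, so their direction here is not independent evidence. The same holds for other genes that the study listed as changed in KO. Among them are Lin28a, Foxc2, Emb, Itga3, Reln, Spp1, Ctnnbip1, Hdac1, Igf2 and Egr1. Hoxb8 was at 7.00 and 6.73 FPKM in KO c-KIT+ cells, against 14.1 and 14.2 FPKM in WT c-KIT+ cells (-0.95, SE 0.06, adjusted p = 7.61e-05, limma) and was called whichever library was left out. Hoxb13 differed by -1.23, Hoxb7 by -1.16 and Hoxb6 by -0.96, and each lost its call in some fits with 1 library left out. Summed over the list the levels were 37.51 and 38.9 FPKM in KO c-KIT+ cells, against 81.5 and 78.7 FPKM in WT c-KIT+ cells. Fewer of the 9 were called with 1 library left out, and the median log2 fold change then lay between -0.93 and -0.783. In all 9 genes both KO libraries lay below both WT libraries, so leaving out 1 library could not bring any of them above 0. Of the other Hox genes only Hoxc13 (0.21) and Hoxc4 (-0.16) passed the filter, of 29, and neither was called. Both passed through their SSC levels. In c-KIT+ cells Hoxc13 was at 0.773 and 1.06 FPKM in KO against 0.753 and 0.555 FPKM in WT. Hoxc4 was at 0.122 and 0.167 FPKM in KO c-KIT+ cells against 0.331 and 0.226 FPKM in WT c-KIT+ cells. At such levels a change could hardly be called, so they give no contrast to the Hoxb genes. In SSCs Hoxc4 was called lower in KO (-0.84).

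Collagens and some other products of the extracellular matrix were lower as well. Of 24 tested collagen genes 8 fell and none rose (33.3% called, against 2.70% of all genes tested). Of the 24 genes 21 lay below 0, and the median log2 fold change was -0.42. Col1a1, the main chain of fibrillar type I collagen, was at 28.3 and 26.2 FPKM in KO c-KIT+ cells, against 40.3 and 39.2 FPKM in WT c-KIT+ cells (-0.53, SE 0.05, adjusted p = 0.000692, limma), and had an adjusted p of 0.011 without WT replicate 1. Col1a2 differed by -0.59, Col22a1 by -0.61, and the basement membrane pair Col4a1 and Col4a2 by -0.61 and -0.53. Of 39 other matrix genes 4 fell, none rose and 35 were not called, with 28 below 0 and 11 above it (median -0.31). The 4 were Sparc (-0.64), Bgn (-0.61), Reln (-0.54) and Spp1 (-0.51). Summed over that list the levels were 550 and 545 FPKM in KO c-KIT+ cells, against 585 and 587 FPKM in WT c-KIT+ cells. Sparc lost its call whichever library was left out, and Bgn kept it without WT replicate 1 only. Spp1, the secreted phosphoprotein osteopontin, was at 30.1 and 33.1 FPKM in KO c-KIT+ cells, against 45.2 and 45.7 FPKM in WT c-KIT+ cells, and like Reln it was outside the threshold without WT replicate 1 or 2 (adjusted p = 0.0193 and 0.0213 for Spp1, 0.0138 and 0.0188 for Reln). The number of collagens called was 3 without KO replicate 1, 2 without KO replicate 2, 1 without either WT library, and 2 in a fit of the c-KIT+ libraries alone. Of 20 integrins and cadherins with their partners Emb and Itga3 (-0.37) fell and Itgb5 (0.50) rose. The call of Itga3 was lost whichever library was left out (adjusted p between 0.0178 without KO replicate 1 and 0.0429 without WT replicate 1), and that of Itgb5 without WT replicate 2 (adjusted p = 0.0112).

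Some markers of other cell types moved beside these genes. Of 23 tested markers of fibroblasts and peritubular cells 8 fell, none rose and 22 lay below 0, with summed levels of 197 and 193 FPKM in KO c-KIT+ cells against 258 and 257 FPKM in WT c-KIT+ cells. The number of these markers called lower was 3 without KO replicate 1, 2 without KO replicate 2, 1 without either WT library, and 2 in a fit of the c-KIT+ libraries alone. Among the 23 markers 8 are collagens, and over the other 15 the sums were 123 and 122 FPKM in KO c-KIT+ cells and 155 and 154 FPKM in WT c-KIT+ cells, with 3 called lower. Vim, an intermediate filament gene of mesenchymal and many cultured cells, was at 18.4 and 18.7 FPKM in KO c-KIT+ cells against 25.7 and 27.6 FPKM in WT c-KIT+ cells. Twist1, with a difference of 0.10, was the only marker of the 23 above 0. Pdgfrb, Myh11, Cnn1 and Prrx1, which define fibroblasts or smooth muscle, did not pass the filter, so their change is not known. Vim and Twist1 were named after their values were seen. In bulk RNA fewer cells of a type and less RNA per cell cannot be told apart, and the part of such cells in the fall of the collagens was not tested. Of 7 tested Sertoli cell markers Trf and Krt18 (-1.38, adjusted p = 0.0014, limma) fell, while 5 were not called. The median of the 7 was -0.04, and 2 lay above 0. Krt18 kept its call without KO replicate 1 only (adjusted p = 0.0126 without KO replicate 2, 0.0172 without WT replicate 1 and 0.0131 without WT replicate 2), while the defining markers Amh, Fshr, Cldn11, Gata4, Dhh and Wt1 were below the filter and Cst9 was listed at 0. No Leydig marker of 9 was tested, and of macrophage and blood markers only Cd68 was, at 1.27 and 1.43 FPKM in KO c-KIT+ cells and 2.44 and 2.16 FPKM in WT c-KIT+ cells (adjusted p = 0.0786, limma). Of endothelial markers 3 were tested and of late spermatocyte and spermatid markers 5, and none was called.

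The chromosome 17 stretch that holds the H2 histocompatibility genes carried many of the largest changes in both directions. Within it, between Angptl4 (start at 33911845 of mm9) and H2-M3 (end at 37411430), 13 of 101 tested genes were called (12.9%), 9 lower and 4 higher, against 17 of 509 (3.34%) on the rest of the chromosome. The limits of the stretch and the genes named only for it were chosen after the values were seen, so no test was made. H2-D1, a classical class I gene, was at 3.13 and 3.41 FPKM in KO c-KIT+ cells, against 18.1 and 18.8 FPKM in WT c-KIT+ cells (log2 fold change -2.19, adjusted p = 4.6e-05, limma). H2-Q7 was listed at 0 and 0.0409 FPKM in KO c-KIT+ cells, against 11.3 and 9.59 FPKM in WT c-KIT+ cells. H2-Q6 and H2-Q9 were listed at or near 0 in both KO libraries, against 5.94 and 5.68 FPKM for H2-Q6 and 2.18 and 3.23 FPKM for H2-Q9 in WT c-KIT+ cells. The call of H2-Q9 was lost without any of the libraries. H2-Q1 was higher, at 3.17 and 2.90 FPKM in KO c-KIT+ cells against 0.876 and 0.503 FPKM in WT c-KIT+ cells (1.26, adjusted p = 0.00113, limma), and lay just outside the threshold without KO replicate 1 (adjusted p = 0.0108) or WT replicate 2 (adjusted p = 0.0105). H2-K1, the other classical class I gene, did not differ beyond its spread, at 23.99 and 25.8 FPKM in KO c-KIT+ cells and 22.4 and 25.6 FPKM in WT c-KIT+ cells.

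These H2 genes are near-identical copies that differ between mouse strains, and reads of one can be counted to another. Of 15 tested H2 symbols 6 fell and 1 rose (46.7%), and 5 of the 12 largest decreases and 2 of the 12 largest increases of the whole comparison lay in the stretch. Whether the KO and WT lines carry the same strain alleles there was not tested, and the line and the genotype cannot be told apart in this design. A list of antigen presentation and interferon response genes leaves out these H2 genes, so it cannot tell whether antigen presentation changed. Of its 20 tested genes 1 rose and none fell. This was Isg15, at 0.899 and 1.07 FPKM in KO c-KIT+ cells against 0.229 and 0.308 FPKM in WT c-KIT+ cells (0.64, adjusted p = 0.00443, limma). The call of Isg15 was lost without any of the libraries.

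**Figure D4:**
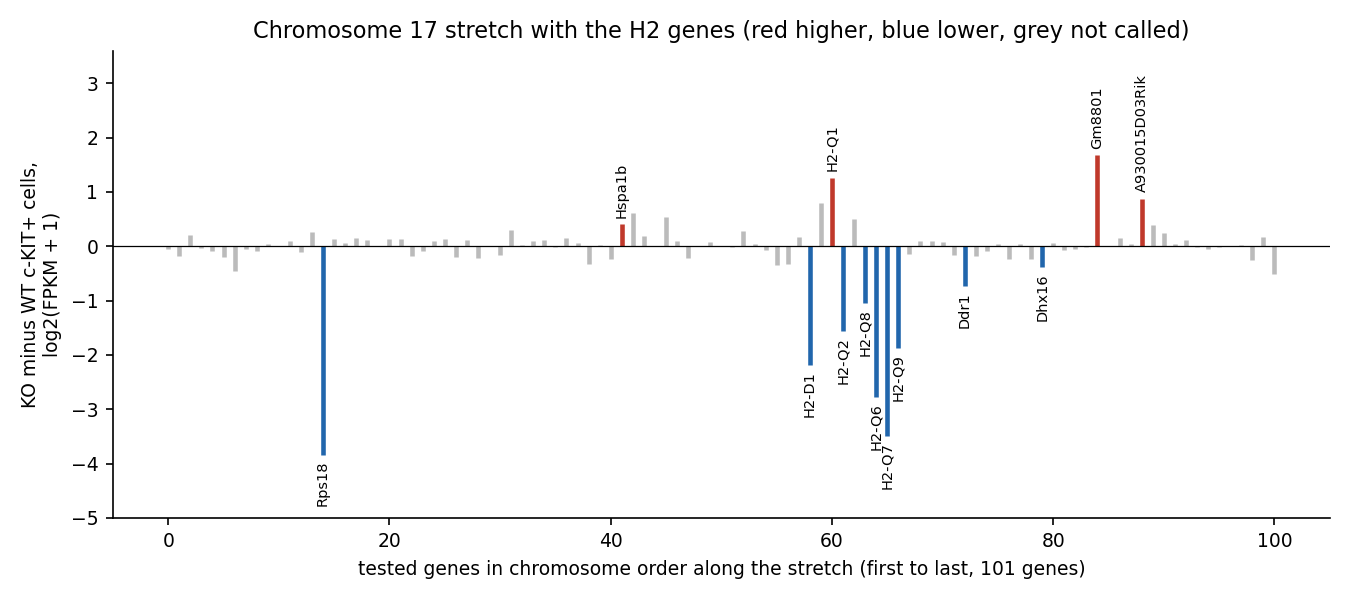
KO minus WT log2 fold change in c-KIT+ cells of the 101 tested genes of the chromosome 17 stretch in their order along the chromosome, red called higher, blue called lower and grey not called. Called genes of both directions lie among genes that were not called, and the H2-Q genes point both up and down.

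Ribosomal protein genes gave another group with copies elsewhere in the genome. Of 96 tested Rpl and Rps symbols 6 fell and 1 rose (7.29% called, against 2.70% of all genes tested). Rps18, in the chromosome 17 stretch, was at 0.443 and 0.130 FPKM in KO c-KIT+ cells, against 15.9 and 18.8 FPKM in WT c-KIT+ cells, the largest difference among the called genes (log2 fold change -3.84, adjusted p = 4.45e-06, limma). Rpsa was at 6.30 and 6.08 FPKM in KO c-KIT+ cells against 22.99 and 23.7 FPKM in WT c-KIT+ cells (-1.76, adjusted p = 3.62e-06, limma), and Rps2, the most abundant gene called, at 248 and 272 FPKM in KO c-KIT+ cells against 408 and 412 FPKM in WT c-KIT+ cells (-0.66, adjusted p = 0.000692, limma). Rps2 was outside the threshold without WT replicate 1 or 2 (adjusted p = 0.0104 and 0.0118). Rpl29 was the member that rose, at 196 and 232 FPKM in KO c-KIT+ cells against 135 and 128 FPKM in WT c-KIT+ cells (0.69, adjusted p = 0.00436, limma), and it kept its call without KO replicate 1 only (adjusted p = 0.0235 without KO replicate 2, 0.03 without WT replicate 1 and 0.0437 without WT replicate 2). Processed copies of ribosomal protein genes can take up their reads, so these values are uncertain. Ndufb7, a subunit of respiratory complex I, was at 56.4 and 60.4 FPKM in KO c-KIT+ cells against 114 and 103 FPKM in WT c-KIT+ cells (-0.88, adjusted p = 0.000132, limma), and was called whichever library was left out.

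Some called genes lay near each other on a chromosome. Taking called genes whose starts lay at most 250 kb apart, 35 runs held 94 of the 324 called genes (29.0%). Of these runs 22 were in 1 direction and 13 mixed. The share for as many genes drawn from all those tested was not computed, so 29.0% is a description only. Runs also spanned genes that were not called, as in a run on chromosome 8 with 2 of 15 tested genes called. On chromosome 11 a run from 95703609 to 96215328 of mm9 held the 8 Hoxb genes and their neighbours Igf2bp1 (log2 fold change -0.33), which binds Igf2 messenger RNA, and Gngt2 (0.91), so that 10 of 15 tested genes were called. On chromosome 8 Clgn (-0.88), a chaperone of the testis, Scoc (-0.85), Ndufb7 and Cd97 (-0.61) fell together, with 4 of 9 tested genes called. H19 with Igf2 and Igf2as, and Col4a1 with Col4a2 formed runs of their own. The runs, their spacing and Igf2bp1, Gngt2, Clgn, Scoc and Cd97 were chosen after the values were seen, and adjacent genes that share a promoter, a regulatory region or overlapping reads are not independent of each other.

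The differences in c-KIT+ cells were largely those found in SSCs before RA. In SSCs 253 genes were called higher (2.11%) and 334 lower (2.79%) in KO, with fold changes from libraries other than those of the c-KIT+ groups. Both contrasts took the spread of each gene from the same fit of all 8 libraries. A gene of small spread is thus more easily called in both, and the 2 sets of calls are not independent. Which SSC line each library came from is not given, so the SSC and c-KIT+ libraries of a genotype may share a line. Of the 133 genes higher in KO c-KIT+ cells 93 were called higher in KO SSCs, and of the 191 lower 138 were called lower, which is 93 of 253 and 138 of 334 of the SSC calls. None was called in the opposite direction, and 130 of the 133 and all 191 had the same sign. The 40 higher genes without a call in SSCs had a median log2 fold change of 0.29 there, and the 53 lower genes -0.28. The difference between the KO effects in c-KIT+ cells and in SSCs was called for 0 genes (0%) by limma, with 865 genes (7.22%) at an unadjusted p under 0.05 and a smallest adjusted p of 0.123. No change is therefore shown to be particular to c-KIT+ cells.

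**Figure D5:**
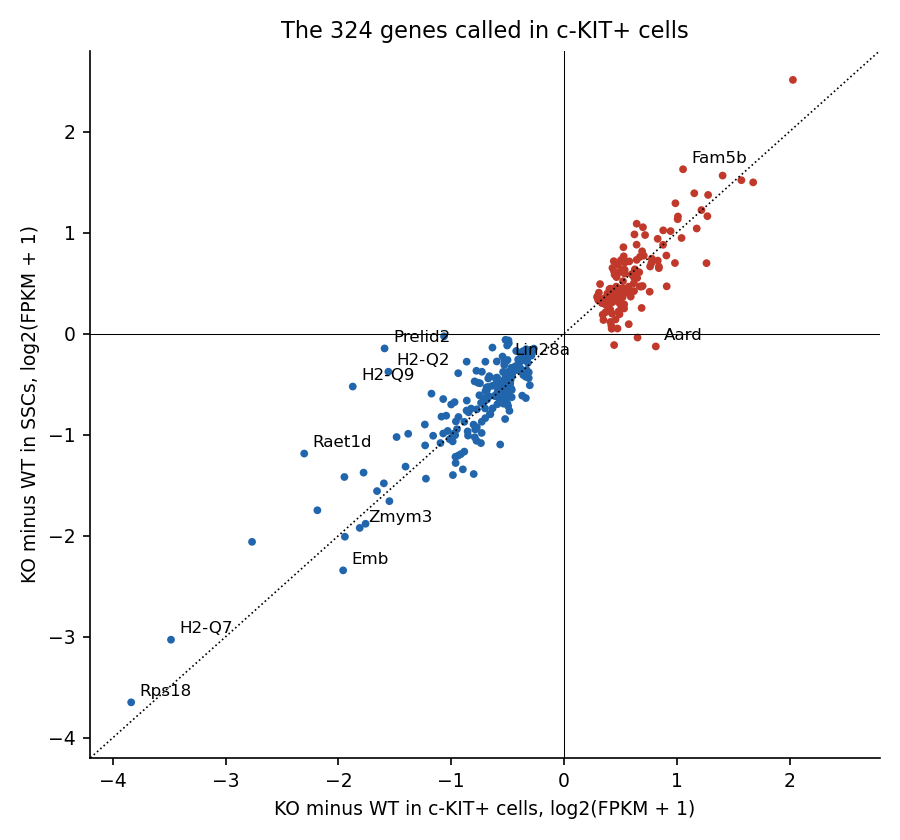
The 324 genes called in c-KIT+ cells, by their KO minus WT log2 fold change in c-KIT+ cells (x axis) and in SSCs (y axis), red higher and blue lower in KO c-KIT+ cells, with a dotted line where both are equal. Nearly all points lie in the quadrants of equal sign, while Prelid2 and Aard lie near 0 in SSCs.

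Among the genes far from that line, Prelid2 and Aard were low in SSCs of both genotypes. Prelid2 was at 0.609 and 0.911 FPKM in KO c-KIT+ cells against 3.92 and 4.68 FPKM in WT c-KIT+ cells, and at 0.850 and 1.02 FPKM in KO SSCs against 0.916 and 1.40 FPKM in WT SSCs. Its log2 fold change was -1.59 in c-KIT+ cells and -0.15 in SSCs (difference -1.44, SE 0.19, adjusted p = 0.123, limma). Aard was at 1.57 and 1.95 FPKM in KO c-KIT+ cells against 0.559 and 0.569 FPKM in WT c-KIT+ cells (0.81), with -0.13 in SSCs, where it was near 0 in all 4 libraries. Neither difference passed the test, and both genes were named after their values were seen. Lin28a differed by -0.51 in c-KIT+ cells and -0.27 in SSCs (difference -0.24, adjusted p = 0.498, limma), and Mei1 by 0.50 and 0.36 (difference 0.14, adjusted p = 0.811, limma).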

How the data were processed

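The authors deposited 1 table per library with an FPKM value for each gene. Per the submitters' processing notes the reads were handled with TopHat2 2.0.6, Cufflinks 2.0.2 and Cuffdiff on mm9. FPKM are not counts, so the log2(FPKM + 1) values computed from the deposited tables were tested with limma 3.58.1 in R 4.3.3. Each table held 23021 entries, of which 728 with repeated symbols were dropped and 22293 kept. Genes at 1 FPKM or more in at least 2 of the 8 c-KIT+ and SSC libraries were tested (11981). A single model over the 4 groups, with a variance trend, gave the KO minus WT contrasts and their difference, with Benjamini-Hochberg adjustment and a threshold of 0.01. The depth of the libraries is not in the files. The smallest FPKM steps gave relative depths between 0.93 and 1.08 in the c-KIT+ libraries and between 1.04 and 1.22 in the SSC libraries. The limma script was tested on simulated data.

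Named genes were Zmym3, Lin28a and Mei1, the genes of the study's qRT-PCR assays in cultured cells, the 12 largest increases and decreases, the 6 most abundant called genes of each direction, and up to 4 called members per list, or the 2 most abundant where none was called. Members and lists were chosen with earlier results of these data known. The alternatives were other pseudocounts, filters, scalings, thresholds, a fit of the c-KIT+ libraries alone, a replicate block, and each library left out, which leaves 1 library in that group, assumed to vary like the libraries of the other groups. The spermatocyte libraries, with 1 library per group, were not used here. Guide positions come from GRCm38 and promoters from RefSeq on GRCm38.p6, while gene positions are those of the deposited mm9 tables. Some genes that the rule names are not reported here.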

Additional observations from a re-analysis of the deposited data

How the results depend on the processing

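The counts of called genes depended on the processing. Against 133 higher and 191 lower, 52 and 88 were called with no filter on low values, 43 and 86 in a fit of the 4 c-KIT+ libraries alone, 435 and 465 at an adjusted p under 0.05, and 54 and 102 with a fold change of at least 1.5. With each library left out in turn 24 to 66 genes were called higher and 55 to 88 lower. The lowest counts were those without WT replicate 2. Of the genes called, 20 higher and 47 lower kept their call without each of the 4 libraries. The labels number the replicates in both genotypes, but nothing says what a number stands for, and 2 pairs were too few to treat it as pairing. Deviations of same-numbered libraries correlated at -0.0111 between KO and WT c-KIT+ cells, at 0.283 between KO c-KIT+ cells and KO SSCs, and at 0.169 between WT c-KIT+ cells and WT SSCs, so whether the c-KIT+ and SSC libraries are independent was not settled. A replicate block gave 92 higher and 121 lower. The difference between the KO effects in c-KIT+ cells and SSCs was called for 0 genes, for 4 with equal FPKM totals, and for 0 to 1 with a library left out. Equal totals without small RNA genes, chosen after seeing the data, gave 212 higher and 242 lower. The cause of these shifts was not tested. Of the 102 named genes, none of the 75 that were called took both signs over the settings run, while 6 that were not called did (Aldoa, Dazl, Odf2, Sall4, Sycp1 and Tex19.1). In each of the 75 both KO libraries lay on the same side of both WT libraries. Leaving out 1 library could therefore not reverse their sign, and their stable direction is no further evidence.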

Other observations

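Neuronal genes under REST control and genes of WNT, BMP and TGF-beta signalling held a few calls that belong to no group above. Of 15 tested neuronal genes 2 rose and none fell, among them Sez6, at 44.8 and 44.6 FPKM in KO c-KIT+ cells against 32.8 and 33.3 FPKM in WT c-KIT+ cells (log2 fold change 0.42, adjusted p = 0.00113, limma). Sez6 was outside the threshold without WT replicate 1 or 2 (adjusted p = 0.0174 and 0.0143). Of 47 tested signalling genes 2 rose and 1 fell: Tcf7l1, a transcriptional partner of beta-catenin, differed by 0.63, Chrd, a secreted BMP antagonist, by 0.62, and Ctnnbip1, an inhibitor of beta-catenin, by -0.53. All 3 calls were lost whichever library was left out (adjusted p between 0.0133 and 0.0614 for Tcf7l1, 0.0186 and 0.0589 for Chrd, and 0.0269 and 0.0456 for Ctnnbip1), and the list held 0 calls in a fit of the c-KIT+ libraries alone. Of 19 tested glycolysis genes none was called. Snord33, a small nucleolar RNA gene, was at 6915 FPKM in KO c-KIT+ replicate 1, which is 2.60% of that library's FPKM total, and was listed at 0 in the other 7 libraries.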
